A study of Sus scrofa with 9 samples.

Results

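The inner mitochondrial membrane carries the respiratory chain, and most of its subunits are encoded in the nucleus. Complex I takes electrons from NADH, complex II takes them from succinate within the citric acid cycle, and complexes III and IV pass them through cytochrome c to oxygen. Complex V, the ATP synthase, uses the resulting proton gradient to make ATP. Liver is rich in mitochondria, and its respiratory chain supplies the energy for glucose output, urea synthesis and the oxidation of fatty acids and amino acids. The nuclear-encoded subunits were taken by symbol from the count table: 70 of 29837 symbols matched the NDUF (without the NDUFAF assembly factors), SDHA to SDHD, UQCR, CYC1, COX4 to COX8 or ATP5 names. They were 39 NDUF genes of complex I, 4 SDH genes of complex II, 2 UQCR genes of complex III, 8 COX genes of complex IV and 17 ATP5 genes of complex V.

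RNA was sequenced from the livers of 4 pigs labelled MIDY and 5 labelled wild type (WT), each a female aged 2 years. MIDY abbreviates a diabetes of youth caused by mutant INS, and MIDY pigs carry an insulin transgene with the C94Y change. Diabetic pigs received short and long acting insulin, so that transgene, diabetes and insulin treatment cannot be told apart. The libraries held 14115415 to 19533463 counts. Hepatocyte markers such as ALB and APOA1 were abundant in every library (summed level of 8 markers, 117264 to 171344 CPM, counts per 1e6 counts of the scaled library). Summed marker levels of some other cells tended to be lower in MIDY. The summed level of 11 leukocyte markers was 131 to 151 CPM in MIDY and 157 to 198 CPM in WT. All 8 leukocyte markers tested had fitted values below 0, and edgeR called 0 of them (lowest adjusted p = 0.168). The summed level of 7 stellate cell and fibroblast markers was 389 to 508 CPM in MIDY and 472 to 678 CPM in WT, with overlap. Among these 7, 6 had fitted values below 0 (RELN had 0.03, log2). The collagen gene COL1A2 was called lower (-0.81, log2, edgeR adjusted p = 0.0434). Other sums overlapped widely: endothelial (594 to 684 CPM in MIDY, 573 to 682 CPM in WT), cholangiocyte (20.6 to 28.9 and 18.5 to 29.9 CPM) and red blood cell markers (162 to 536 and 69.1 to 1493 CPM). The summed level of 7 markers of vascular smooth muscle and pericytes was 87.8 to 123 CPM in MIDY and 113 to 327 CPM in WT. Their median log2 fold change was -1.08, and 0 were called by edgeR. At an unadjusted p below 0.05 in edgeR, 6 of 7 were below 0 (8% of all genes). RGS5 had a fitted value of 0.46 (log2). The part of these cells in the results below was not tested. Fewer cells of a type and less RNA per cell cannot be told apart in such tissue samples.

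Not every subunit had a row. CYC1, UQCRC1, UQCRC2, UQCRFS1, COX4I1 and COX5A were among 13 usual subunit symbols that were not analysed here, and neither were the subunits encoded by mitochondrial DNA. Complexes III and IV are therefore seen through their smaller subunits. By its protein, NDUFA4 belongs to cytochrome c oxidase (complex IV), although its name places it among the NDUF genes, and ATP5S and ATP5SL encode proteins related to each other that are not structural subunits of the ATP synthase. Of the 70 genes, 68 passed the filter on low counts. The exceptions were NDUFA4L2, an isoform induced by low oxygen in other tissues, with 4 to 9 counts in any library, and COX8H, the heart isoform of subunit 8, with 0 counts in all 9 libraries. A count of 0 allows a level of up to 3 counts per library, or 0.150 to 0.209 CPM.

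The respiratory chain transcripts analysed here differed little between MIDY and WT liver. None of the 68 tested genes was called, 0 higher and 0 lower, at an adjusted p below 0.05. The test was edgeR's quasi-likelihood test, with Benjamini-Hochberg adjustment over 14100 genes. Of all genes tested 1.17% were called, 0.816% higher and 0.355% lower, and 0 of 68 is near that share. DESeq2 and limma voom called 0 members as well, although DESeq2 called 639 genes in all. At an unadjusted p below 0.05 there were 3 members, or 4.41%, all with fitted values above 0, against 16.1% of all genes (8.15% above 0). The fitted log2 fold changes (MIDY minus WT) ran from -0.23 for NDUFB1 to 0.31 for NDUFA9. The fitted value lay above 0 for 34 members and below 0 for 34 (above 0 for 49.3% of all genes), and the median was 0.0017, beside -0.0046 for all genes tested. This split and the median moved when single libraries were left out, as given below. The median size of the change, without its sign, was 0.091 on the log2 scale for the members and 0.185 for all genes. These genes were also measured with less error than most: the median standard error was 0.13 for the members and 0.18 for all genes. Their median level was 29.8 CPM, against 10.1 CPM for all genes. Few ribosomal genes had an unadjusted p below 0.05 in edgeR either. There were 4 above and 1 below 0 of 76 for the mitochondrial ribosome, and 1 and 4 of 83 for the cytosolic. Without regard to p, fitted values lay above 0 for 44 of the 76 and for 16 of the 83 (49.3% of all genes). For 64 of the 68 members the 95% interval of the change lay within 1.5-fold in either direction, which held for 48.6% of all genes. The exceptions were NDUFB1, NDUFS8, NDUFV3 and SDHD.

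**Figure D1:**
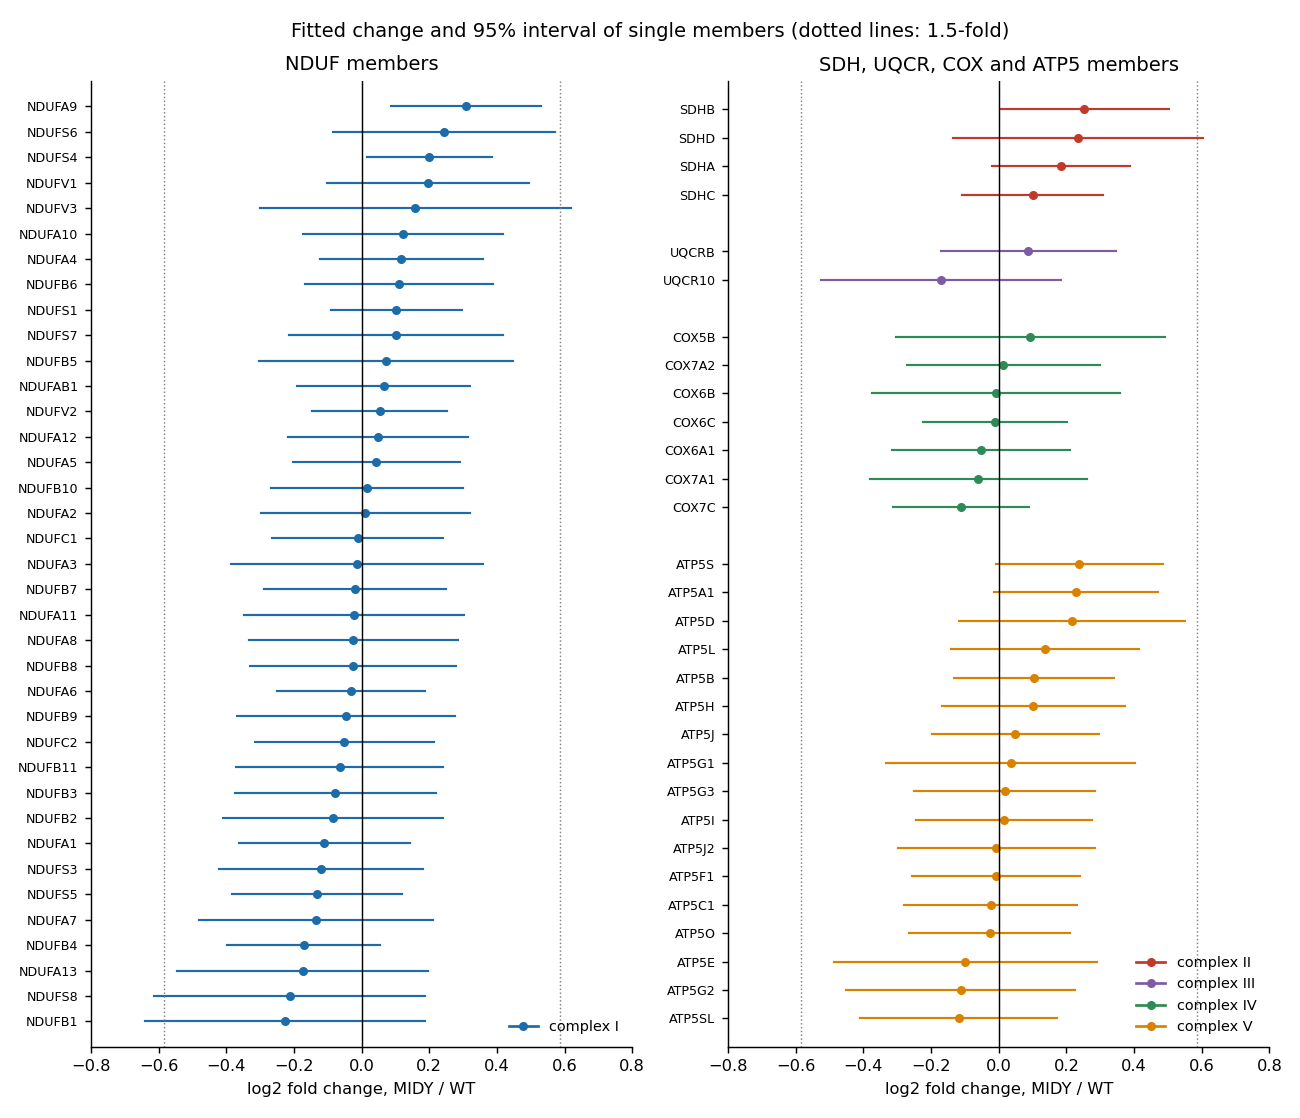
Fitted log2 fold change (MIDY over WT, x axis) of 67 of the 68 tested members, each with its 95% interval, sorted within each complex (4 MIDY and 5 WT libraries). The intervals of NDUFA9, NDUFS4 and SDHB lie above 0 before adjustment for multiple testing, and 63 of the 67 intervals stay inside the dotted 1.5-fold lines.

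Complex I is the largest complex, with a matrix arm that oxidizes NADH and a membrane arm that pumps protons. Of its 38 tested NDUF genes, 17 had a fitted value above 0 and 21 below 0, with a median of -0.02. The largest value was that of NDUFA9, an accessory subunit where the arms meet (chromosome 5, 65760078 to 65788703, Sscrofa11.1). NDUFA9 had 40.5, 38.4, 34.9 and 31.7 CPM in the 4 MIDY libraries and 27.5, 30.7, 29.0, 27.6 and 31.9 CPM in the 5 WT libraries. All but the lowest MIDY library lay above every WT library, and with total counts alone all 4 did (35.0 to 38.3 against 26.1 to 32.7 counts per 1e6). The mean was 36.4 ± 3.87 CPM (SD, n = 4) against 29.3 ± 1.92 CPM (SD, n = 5), a log2 fold change of 0.31 ± 0.10 (SE; edgeR adjusted p = 0.168).

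NDUFS4, an accessory subunit of the matrix arm whose loss causes a mitochondrial disease of childhood, was the only member whose groups did not overlap on the TMM-scaled levels (chromosome 16, 32874418 to 32985638). It had 49.2, 45.2, 46.6 and 45.3 CPM in MIDY and 41.8, 37.8, 40.4, 41.7 and 40.8 CPM in WT. Every MIDY library was thus above every WT library, by a narrow margin (log2 fold change 0.20 ± 0.09, SE; edgeR adjusted p = 0.273). Groups that did not overlap were found in 6.35% of all genes tested, with MIDY higher in 3.72% and lower in 2.63%. With total counts alone the groups of NDUFS4, NDUFA9 and SDHA did not overlap, 3 members beside 6.05% of all genes (3.94% with MIDY higher). In the opposite direction NDUFB4, of the membrane arm, had 27.7 ± 2.74 CPM in MIDY (SD, n = 4) and 31.1 ± 2.40 CPM in WT (SD, n = 5), with overlapping libraries (edgeR adjusted p = 0.453).

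The core of complex I, which binds NADH and carries the electrons over iron-sulfur clusters to ubiquinone, includes NDUFV1, NDUFV2, NDUFS1, NDUFS3, NDUFS7 and NDUFS8. NDUFV1, which holds the flavin and the NADH site, had 37.9, 36.6, 35.1 and 35.1 CPM in MIDY and 27.0, 26.2, 42.8, 32.8 and 29.3 CPM in WT. The MIDY libraries were close to each other, and 4 of the 5 WT libraries lay below them, with WT replicate 3 above all on the scaled levels. The fitted difference was 0.20 ± 0.14 (log2 ± SE; edgeR adjusted p = 0.523). NDUFS1, the largest iron-sulfur subunit, had 55.9 ± 4.01 CPM in MIDY and 52.0 ± 1.97 CPM in WT (SD, n = 4 and 5). NDUFV2, which carries an iron-sulfur cluster beside the flavin, and NDUFS7, near the quinone site, had fitted log2 values of 0.05 and 0.10, NDUFS3 one of -0.12 and NDUFS8 one of -0.21 (edgeR adjusted p = 0.832, 0.786, 0.725 and 0.615). The 30 accessory subunits of complex I had a median of -0.02, with 12 fitted values above 0. NDUFB10, the one with most counts among these, had 62.1 ± 7.54 CPM in MIDY and 61.5 ± 10.1 CPM in WT (SD, n = 4 and 5). NDUFB10 and NDUFA7 overlap the ribosomal protein genes RPS2 and RPS28 in the annotation, and the symbol NDUFA4 has 2 entries in the reference, so the counts of these 3 genes are uncertain. The same holds for NDUFB1, with 72 to 127 counts, which overlaps CPSF2, and for NDUFB11, which overlaps RBM10. NDUFS3 overlaps KBTBD4, which had 39 to 78 counts.

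All 4 genes of complex II, succinate dehydrogenase, had fitted values above 0, with a median of 0.21, but none was called. SDHB, the iron-sulfur subunit (chromosome 6, 75648362 to 75678111), had 258, 205, 203 and 243 CPM in MIDY and 176, 170, 215, 208 and 183 CPM in WT. MIDY replicates 1 and 4 lay above all WT libraries, and the others lay within the WT range. The means were 227 ± 27.4 CPM (SD, n = 4) and 191 ± 19.98 CPM (SD, n = 5), a log2 fold change of 0.25 ± 0.11 (SE; edgeR adjusted p = 0.301).

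SDHA, the flavoprotein that oxidizes succinate (chromosome 16, 79838442 to 79862956), had 217, 209, 209 and 197 CPM in MIDY and 177, 182, 201, 191 and 164 CPM in WT. The groups overlapped through MIDY replicate 4 and WT replicate 3 on this scale, and not with total counts alone, at 203 to 217 and 169 to 190 counts per 1e6 (log2 fold change 0.18 ± 0.09, SE; edgeR adjusted p = 0.364). SDHA overlaps CCDC127, which had 54 to 84 counts. SDHC and SDHD anchor the enzyme in the membrane and form its quinone site. SDHC had 86.1 ± 8.25 CPM in MIDY and 80.4 ± 4.67 CPM in WT (SD, n = 4 and 5). SDHD had 22.8, 31.02, 26.5 and 16.3 CPM in MIDY and 20.2, 22.2, 24.3, 17.8 and 17.9 CPM in WT, so that MIDY replicates 2 and 3 were above every WT library, and MIDY replicate 4 was below them on this scale but not with total counts alone. The fitted log2 values were 0.10 ± 0.10 for SDHC and 0.23 ± 0.17 for SDHD (SE; edgeR adjusted p = 0.656 and 0.535).

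Summed over the 4 genes, complex II took 583, 541, 525 and 531 CPM in MIDY and 459, 454, 524, 490 and 445 CPM in WT, of which SDHA and SDHB made up the larger part. The lowest MIDY sum was barely above the highest WT sum, that of WT replicate 3. As a share of all counts, with no scaling factor, the sums were 0.0526 to 0.0586% in MIDY and 0.0457 to 0.0488% in WT, which leaves a wider gap. The sums of complexes I, III, IV and V overlapped between the groups. Whether complex II differs from the other complexes was not tested.

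**Figure D2:**
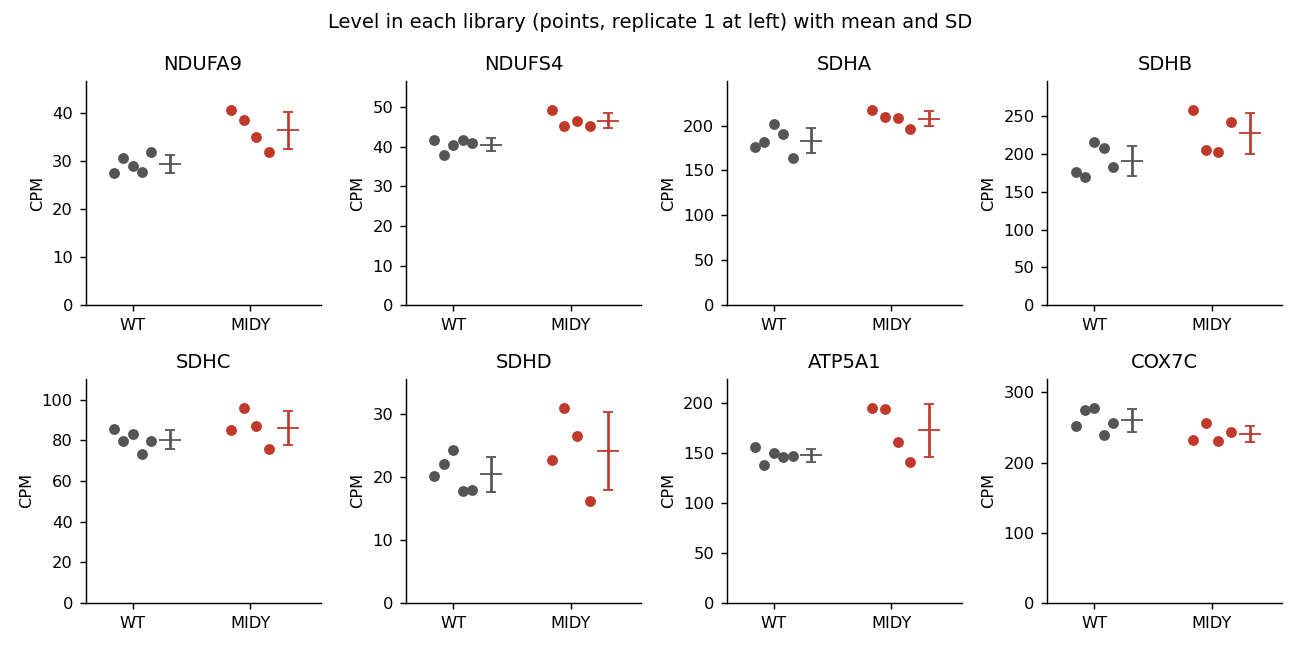
Level of 8 members in CPM (y axis) in each of the 5 WT (grey) and 4 MIDY (red) libraries, with mean and SD beside the points. NDUFS4 is the one gene shown whose groups do not overlap, at 45.2 to 49.2 CPM in MIDY and 37.8 to 41.8 CPM in WT, and on this scale SDHA overlaps through MIDY replicate 4 and WT replicate 3.

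Complex III was seen through UQCRB, a subunit near the site of ubiquinone, and UQCR10, one of its smallest subunits. UQCRB had 107, 86.9, 87.2 and 102 CPM in MIDY and 100, 104, 90.8, 81.3 and 74.96 CPM in WT, with overlapping libraries. UQCR10 had 28.8 ± 2.74 CPM in MIDY and 32.4 ± 8.49 CPM in WT (SD, n = 4 and 5), where WT replicate 3, at 46.9 CPM, stood above the rest. The fitted log2 values were 0.09 ± 0.12 and -0.17 ± 0.16 (SE; edgeR adjusted p = 0.774 and 0.653).

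In complex IV the small subunits that surround the catalytic core had a median log2 fold change of -0.01, and 2 of the 7 tested lay above 0. COX7C, the one with most counts, had 233, 256, 231 and 244 CPM in MIDY and 253, 274, 278, 239 and 257 CPM in WT. The groups overlapped, and the fitted value was -0.11 ± 0.09 (log2 ± SE; edgeR adjusted p = 0.6005). COX6C had 163 ± 10.9 CPM in MIDY and 165 ± 13.8 CPM in WT (SD, n = 4 and 5), and its counts are uncertain because it overlaps VPS13B. COX5B, which binds zinc, ranged from 46.3 to 69.4 CPM in MIDY and from 45.0 to 76.8 CPM in WT, so that the spread within each group exceeded the fitted difference of 0.09 (log2; edgeR adjusted p = 0.856). NDUFA4, also a protein of this complex, had 126 ± 16.9 CPM in MIDY and 116 ± 9.30 CPM in WT (SD, n = 4 and 5; edgeR adjusted p = 0.648).

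Several subunits of complex IV exist as a form of heart and skeletal muscle and a form of liver and most other tissues. Both forms of subunit 7A were counted in these livers. COX7A1, the muscle form (chromosome 6, 45519225 to 45520721), had 29.3, 32.8, 23.8 and 23.2 CPM in MIDY and 27.1, 28.8, 36.9, 25.3 and 24.1 CPM in WT. COX7A2, the liver form (chromosome 1, 90696746 to 90703407), had 34.4, 28.6, 24.2 and 25.7 CPM in MIDY and 25.2, 26.0, 34.6, 26.9 and 27.2 CPM in WT. Neither differed beyond the spread between libraries (log2 fold changes -0.06 ± 0.15 and 0.01 ± 0.13, SE; edgeR adjusted p = 0.890 and 0.974). Markers of skeletal muscle and heart were close to 0 in the same libraries: the summed level of 11 markers was 0.897 to 3.57 CPM, and MYH7, TNNT3, TNNC2 and MYL1 had 0 counts throughout. The 7 markers of vascular smooth muscle and pericytes summed to 87.8 to 327 CPM. Which cells the COX7A1 counts came from was not tested. COX6A1, the liver form of subunit 6A, had 110 ± 6.88 CPM in MIDY and 114 ± 18.7 CPM in WT (SD, n = 4 and 5; edgeR adjusted p = 0.881).

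Complex V had 10 fitted values above 0 and 7 below 0 among its 17 ATP5 genes, with a median of 0.02. Without ATP5S and ATP5SL, 9 of 15 were above 0, with a median of 0.02. In the catalytic head, ATP5A1 encodes the alpha and ATP5B the beta subunit. ATP5A1 (chromosome 1, 95738789 to 95750835) had 195, 193, 161 and 140 CPM in MIDY and 156, 138, 149, 146 and 147 CPM in WT. MIDY replicates 1 to 3 lay above every WT library and MIDY replicate 4 within the WT range (log2 fold change 0.23 ± 0.11, SE; edgeR adjusted p = 0.341). ATP5B had 161, 148, 138 and 113 CPM in MIDY and 133, 126, 138, 132 and 123 CPM in WT, with MIDY replicate 4 below all other libraries on this scale, though not with total counts alone (0.10 ± 0.11, log2 ± SE; edgeR adjusted p = 0.694). For both genes the MIDY libraries were spread more widely than the WT libraries, with SDs of 26.3 and 20.2 CPM against 6.48 and 6.20 CPM (n = 4 and 5), a difference that was not tested.

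Of the central stalk, ATP5D, the delta subunit, had a fitted log2 value of 0.22 ± 0.15 and ATP5C1, its gamma subunit, -0.02 ± 0.12 (SE; edgeR adjusted p = 0.525 and 0.947). The peripheral stalk genes ATP5F1, ATP5H, ATP5J and ATP5O had a median of 0.02 (ATP5F1 and ATP5J overlap WDR77 and GABPA), and the small membrane subunits ATP5I, ATP5J2 and ATP5L one of 0.02. ATP5G1, ATP5G2 and ATP5G3 encode the same mature protein of the proton-carrying ring, and their fitted values ran from -0.11 to 0.03. ATP5S had 23.0 ± 2.81 CPM in MIDY and 19.4 ± 1.63 CPM in WT, and ATP5SL 9.49 ± 0.80 and 10.3 ± 1.37 CPM (n = 4 and 5, SD). Their adjusted p-values were 0.325 and 0.714 (edgeR). ATP5S and ATP5SL overlap other expressed genes, which makes their counts uncertain.

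The subunit genes varied between libraries in a way that did not follow the groups. MIDY replicate 1 was the highest of the 9 libraries for 24 and WT replicate 3 for 31 of the 68 members. MIDY replicate 4 was the lowest for 19, and MIDY replicate 3 and WT replicate 5 for 13 each, or 27.9%, 19.1% and 19.1% (over all genes, 1559, 1376 and 1200 of 14100). The summed level of all members was 3939, 3721, 3323 and 3279 CPM in MIDY and 3394, 3363, 3902, 3376 and 3202 CPM in WT, so that the highest library of each group was nearly equal. Genes of the cytosolic ribosome were highest in WT replicate 3 for 66 of 83, and genes of the mitochondrial ribosome in MIDY replicate 1 for 26 and in WT replicate 3 for 22 of 76. Over all genes tested these libraries were highest for 13.7% and 16.6%. WT replicate 3 also had the lowest and MIDY replicate 1 the second lowest TMM scaling factor (0.900 and 0.948, others 0.973 to 1.10), and a low factor raises the scaled level of every gene. With total counts alone WT replicate 3 was the highest for 16 members and the lowest for 13, and MIDY replicate 1 the highest for 22 (8.12%, 28.7% and 8.64% of all genes). MIDY replicate 4 was then the lowest for 5 and the highest for 11, or 7.35% and 16.2% (4.4% and 23.6% of all genes). MIDY replicate 3 was the lowest for 17, or 25% (9.13% of all genes). Of the cytosolic ribosomal genes, 47 were still highest in WT replicate 3. The part of the scaling in these library differences was not tested further. Without WT replicate 3, 52 of 68 fitted values were above 0, with a median of 0.05. Without MIDY replicate 1, 23 were above 0, with a median of -0.07. Without both, 34 were above 0. No member was called in these fits (edgeR).

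**Figure D3:**
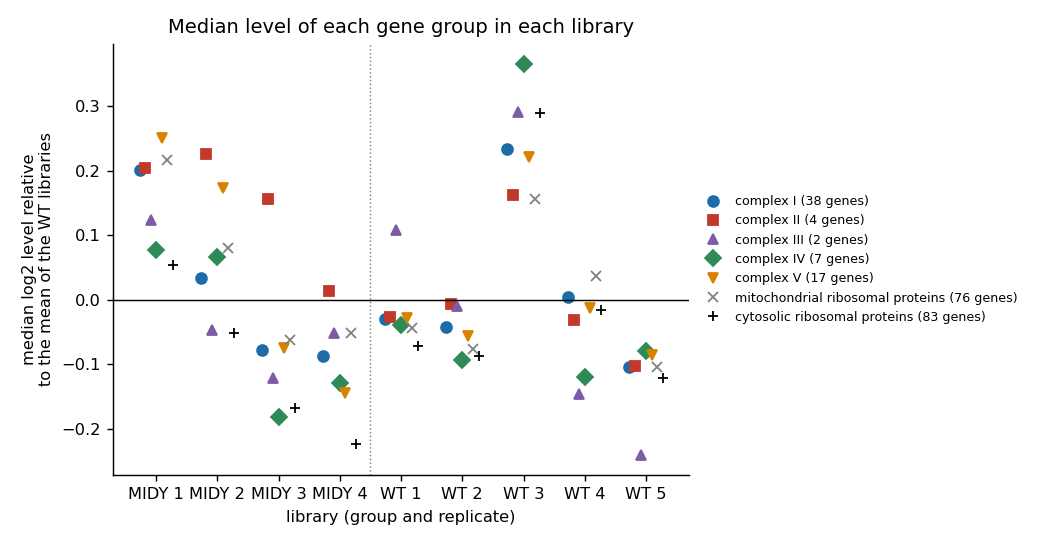
Median log2 level of the genes of each complex and of 2 ribosomal groups in each library (y axis), relative to the mean of the 5 WT libraries. MIDY 1 and WT 3 lie above 0 for every group of genes shown, and the MIDY libraries do not separate from the WT libraries except in part for complex II.

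Genes that build the complexes were described beside the subunits from lists of assembly factors, of which 40 were tested. There edgeR called 1 gene higher and 0 lower, DESeq2 called 3 higher and 1 lower, and limma voom called 1 in each direction. Over all 14100 genes the same tools called 165 (1.17%), 639 and 234. The groups did not overlap for 6 of the 40 with MIDY higher and 1 with MIDY lower (3.72% and 2.63% of all genes). In the fit with edgeR the median log2 fold change was 0.10, and 26 fitted values lay above 0. The gene called by all 3 tools was ATPAF1, a chaperone that binds the beta subunit while the head of the ATP synthase is put together (chromosome 6, 164830623 to 164858741). ATPAF1 had 38.7, 45.7, 42.7 and 39.9 CPM in MIDY and 28.2, 33.2, 27.5, 32.6 and 28.8 CPM in WT, with no overlap, and rose 1.39-fold in MIDY (0.47 ± 0.10 on the log2 scale, with its SE; edgeR adjusted p = 0.0435). This call was lost when any single library was left out, at adjusted p-values of 0.0518 to 0.133, and with total counts alone (0.0718, edgeR). ATP23, a second assembly factor of complex V, had 7.49, 4.58, 5.95 and 9.39 CPM in MIDY and 12.8, 11.4, 12.8, 10.5 and 10.4 CPM in WT. Its groups did not overlap either, with a fitted value of -0.75 ± 0.19 (log2 ± SE; edgeR adjusted p = 0.0786, DESeq2 adjusted p = 0.0104).

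For complex IV, HIGD1A, a small inner membrane protein that binds the enzyme, had 37.4 ± 7.42 CPM in MIDY and 23.0 ± 4.49 CPM in WT, and LRPPRC, which stabilizes mitochondrial messenger RNAs, 136 ± 8.58 and 109 ± 7.23 CPM (SD, n = 4 and 5). Neither passed edgeR's test (adjusted p = 0.0617 and 0.123), and both passed that of DESeq2 (adjusted p = 0.00814 and 0.0225). For complex I, TIMMDC1 and TMEM186, which help assemble the membrane arm, had fitted log2 values of 0.37 ± 0.11 and 0.64 ± 0.19 with no overlap between the groups (SE; edgeR adjusted p = 0.122 and 0.131). SDHAF2, which attaches the flavin to SDHA, had a fitted value of 0.27 ± 0.12, and SDHAF1 one of 0.31 ± 0.26 (log2 ± SE; edgeR adjusted p = 0.289 and 0.606). Of the complex III factors, LYRM7 and BCS1L had values of 0.09 and 0.05 (edgeR adjusted p = 0.845 and 0.938). TIMMDC1, SDHAF2 and LYRM7 overlap other genes, so their counts are uncertain.

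Among 24 tested genes of mobile carriers and electron entry, such as cytochrome c and the enzymes of coenzyme Q synthesis, 0 were called by edgeR, DESeq2 or limma voom. At an unadjusted p below 0.05 in edgeR there were 5 with fitted values above 0 and 3 below 0 (8.15% and 8% of all genes). There the median log2 fold change was 0.10. COQ9 and COQ8A, both needed to make coenzyme Q, had the smallest p-values, with fitted values of 0.34 ± 0.12 and 0.31 ± 0.11 (log2 ± SE, edgeR adjusted p = 0.204 and 0.207). The counts of COQ9 are uncertain because it overlaps CIAPIN1, with 64 to 130 counts and a fitted log2 value of 0.39. Of 19 regulators of mitochondrial biogenesis, edgeR called 0, DESeq2 called CLUH and YY1 higher and limma voom CLUH (165, 639 and 234 over all genes). In the fit with edgeR 15 had fitted values above 0, and the median was 0.09. CLUH, an RNA-binding protein for transcripts of mitochondrial proteins, had 130, 88.8, 101 and 88.3 CPM in MIDY and 76.2, 54.8, 68.5, 70.8 and 64.2 CPM in WT. The groups did not overlap, with MIDY higher, for 2 of the 19 regulators, CLUH among them (3.72% of all genes). The test of edgeR missed the threshold for CLUH (log2 fold change 0.61 ± 0.14, SE, adjusted p = 0.0516, DESeq2 adjusted p = 0.00382, total counts alone 0.0389). The transcription factor YY1 had 62.2 ± 8.91 CPM in MIDY and 47.5 ± 1.88 CPM in WT (SD, n = 4 and 5; edgeR adjusted p = 0.102, DESeq2 adjusted p = 0.0303). The mitochondrial and the cytosolic ribosomal proteins had 0 genes called by edgeR among 76 and 83 (DESeq2 called 1, RPS2), with medians of 0.05 and -0.11. Which of these groups differ from the subunits was not tested.

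**Figure D4:**
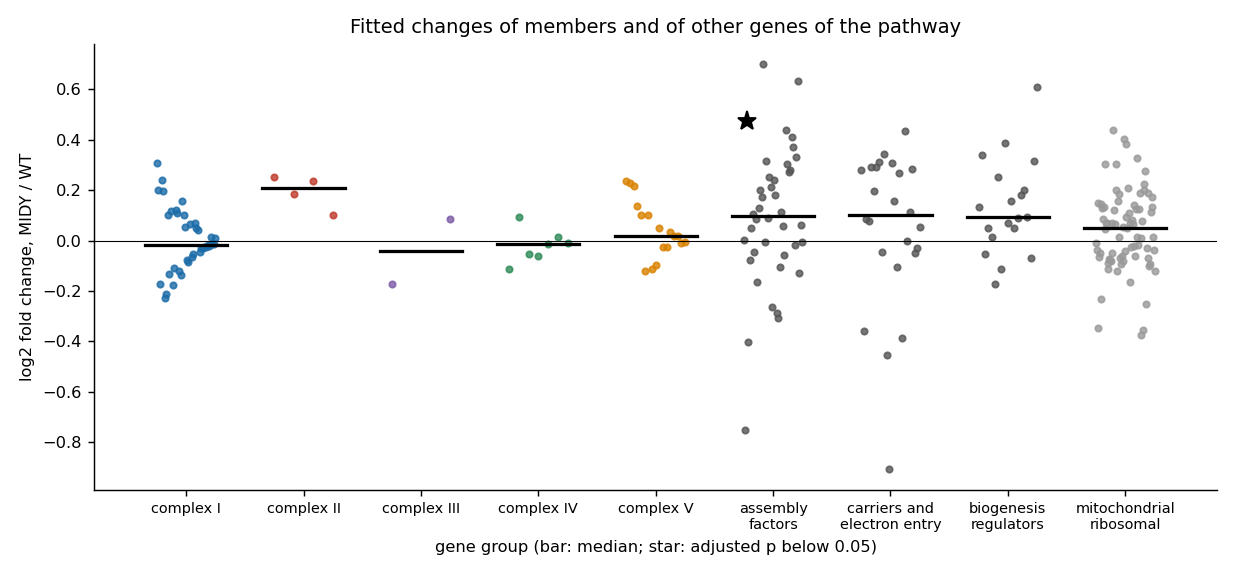
Fitted log2 fold change (MIDY over WT, y axis) of each tested gene of the 5 complexes, the assembly factors, the carriers and electron entry genes, the biogenesis regulators and the mitochondrial ribosomal proteins, with a bar at the median. ATPAF1 is the one gene with an edgeR adjusted p below 0.05 (star), and the subunits of complexes I, III, IV and V are spread around 0.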

How the data were processed

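Livers of 4 MIDY and 5 WT pigs were grouped by the genotype label. Per the labels' protocols, Trizol was used to extract RNA, and an Encore Complete kit to build libraries from RNA depleted of ribosomal RNA. STAR, HTSeq, DESeq2 and the build Sscrofa11.1 are named in the submitters' processing notes. Versions and the strand setting were not found there, so reads of overlapping genes cannot be told apart. The authors deposited raw counts per symbol (0 unused columns). Positions come from the RefSeq table of Sscrofa11.1, which held all 70 members. Promoter and protein sequences were not used here, and levels were not compared between genes as measures of abundance, since transcript lengths were not used.

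Counts were tested in R 4.3.3 with edgeR 4.0.16 (filterByExpr, TMM, robust quasi-likelihood fit, two-sided) over 14100 genes, with Benjamini-Hochberg adjustment and a threshold of 0.05. CPM are counts per TMM-scaled library size times 1e6. The standard error is the size of the log2 fold change over the square root of F, and 95% intervals are not adjusted for multiple testing. The code was tested on simulated data. Alternatives were RLE factors, total counts alone, leaving out the 10 genes with most counts, no filter, a stricter filter (1 CPM or more in 4 or more libraries), limma 3.58.1 voom, DESeq2 1.42.0, and fits with libraries left out. The members and lists were chosen with earlier results of these data known. Test results of single members are given by rule: called genes, in each complex the 3 with the smallest p, the 2 with most CPM and those with the largest rise and fall, and lists of core subunits and tissue isoforms. The check for a library that lay apart covered all tested members. Of the other lists, called genes and the 2 with the smallest p were named. A gene that the rule names is not reported here. Litter, day and batch are not in the labels. Each edgeR p-value sets the difference between the groups against the spread between these libraries, estimated with information from all genes.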

Additional observations from a re-analysis of the deposited data

Results flagged for a closer look

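Both the highest and the lowest library were checked by Dixon's criterion at 95%, which chance alone meets at either end in about 1 of 20 groups. For 12 of 180 groups of 4 or 5 libraries examined, or 6.67%, a library lay apart from the rest. In all 12 it was the highest. WT replicate 3 was that library in 10 cases and MIDY replicate 1 in 2. In complex I, WT replicate 3 had 36.8 CPM of NDUFS5 (other WT libraries 27.7 to 29.9), 41.7 CPM of NDUFAB1 (32.1 to 34.6) and 42.1 CPM of NDUFB11 (29.1 to 31.4). In complex IV it had 76.8 CPM of COX5B (45.0 to 52.7) and 34.6 CPM of COX7A2 (25.2 to 27.2). In complex V it had 33.4 CPM of ATP5D (20.8 to 23.6), 87.1 CPM of ATP5H (66.7 to 69.6) and 78.6 CPM of ATP5G3 (69.4 to 71.8). The summed level in WT replicate 3 was 3902 CPM for all members (3202 to 3394 in the other WT libraries) and 27189 CPM for the cytosolic ribosomal proteins (20020 to 21274). MIDY replicate 1 had 24.2 CPM of NDUFS7 (17.6 to 18.3 in the other MIDY libraries) and 7.99 CPM of TMEM186 (5.03 to 5.48). These values share the scaling factor of their library and are not independent of each other.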

How the results depend on the processing

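The counts of members called, 0 higher and 0 lower, held in all 18 alternatives. Among the 30 members named by rule and reported here, the lowest adjusted p was 0.103 (NDUFA9, DESeq2). The median log2 fold change over all members stayed between -0.07 and 0.05 and that of complex II between 0.14 and 0.26. The numbers of members at an unadjusted p below 0.05 were 5 with total counts alone, 6 without WT replicate 3 and 1 without WT replicate 2, against 3. Leaving out MIDY replicate 1 and WT replicate 3 together was chosen after seeing the data. Of the 30 members, 9 changed the sign of an uncalled value in some setting. Without WT replicates 1 and 2 together, the log2 fold change was -0.029 for COX5B, 0.073 for COX6C, -0.072 for COX7A2, -0.067 for NDUFB10 and -0.040 for NDUFS7, and -0.098 for BCS1L among the assembly factors. Without MIDY replicate 1 and WT replicate 3 it was 0.011 for COX6A1, 0.013 for COX7A1 and -0.0082 for COX7A2. COX6C had 0.010 with total counts alone and 0.0019 with limma voom, and COX7A2 had -0.011 with limma voom. With 1 library left out, values ran from -0.14 to 0.038 for ATP5C1, -0.011 to 0.26 for COX5B, -0.10 to 0.050 for COX6A1, -0.050 to 0.024 for COX6C, -0.16 to 0.049 for COX7A1, -0.096 to 0.10 for COX7A2, -0.061 to 0.11 for NDUFB10, -0.019 to 0.17 for NDUFS7, -0.0028 to 0.083 for NDUFV2, -0.053 to 0.20 for LYRM7 and -0.052 to 0.15 for BCS1L. The cause of these sign changes was not tested. Beside DESeq2, CLUH was called by edgeR without MIDY replicate 4 and without WT replicate 1 (adjusted p = 0.0440 in both), with no filter (0.0272), the strict filter (0.0497) and total counts alone (0.0389), and by limma voom (0.0432). ATP23 was called by edgeR without MIDY replicate 4 (0.0263) and by limma voom (0.0476), and HIGD1A by edgeR with no filter (0.0348). The number of all genes called was 639 with DESeq2, 66 without WT replicates 1 and 2, 74 without MIDY replicate 1 and WT replicate 3, and 38 to 259 with 1 library left out, against 165. No paired analysis was possible because the labels pair no MIDY pig with a WT pig.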
